A study of Mus musculus with 16 samples.

Results

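The 10 genes described here are Adamdec1 and 9 transcripts of the connective tissue that lies under the gut epithelium: Col1a1, Col1a2, Col3a1, Dcn, Lum, Sparc, Fn1, Pdgfra and F2r. They were taken by gene symbol, and every probe set that the platform annotation gives to 1 of these symbols alone was used, which gave 21 of the 45101 probe sets of the Affymetrix whole-genome mouse GeneChip for 10 of its 18194 named genes. The list was drawn up with results of these data known, and Adamdec1 and F2r were chosen by their lower signals in B. longum mice than in germ-free mice. For that reason the values of these 2 genes in any comparison with B. longum or germ-free mice are descriptions, and no p-value is given for them there.

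All of the mice were adult NMRI mice, an inbred strain reared germ-free, on a standard polysaccharide-rich diet. They carried Bacteroides thetaiotaomicron alone (Bt), Bifidobacterium longum alone (Bl) or both species (Bt/Bl) for 10 days, or remained germ-free (GF). Cecal epithelium was cut out of frozen sections by laser capture, RNA from 4 mice of a state was pooled, and 2 amplifications of each pool were hybridized to 1 GeneChip each, so that 8 GeneChips cover 4 states. The duplicates share their animals. Every error and p-value below is therefore that of amplification and hybridization and compares 1 pool with another, and no spread between mice was measured.

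Stromal fibroblasts beneath the epithelium secrete fibrillar collagens, above all types I and III, together with the proteoglycans and glycoproteins that bind and organize the fibrils. Those closest to the crypts respond to platelet-derived growth factor through Pdgfra and send signals back to the epithelium. ADAMDEC1 is a secreted metalloprotease-like protein that was first described in human dendritic cells and macrophages, and in human gut it is also a marker of lamina propria fibroblasts.

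The capture was aimed at epithelium, and the epithelial markers were high throughout. The summed signal of 12 epithelial genes, keratins and Epcam among them, lay between 1178740 and 1690780 on the 8 GeneChips, and 0 of the 12 were called in any of the 5 comparisons. Foxl1, a transcription factor of mesenchymal cells around the crypts, was under the floor of 144.7 on all 8 GeneChips and was not detected. It was the only 1 of 13 listed genes of that mesenchyme for which this held, and 7 of the 13 were bright enough to be tested. The material is a mixture, and fewer cells of a type and less RNA per cell cannot be told apart in it.

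The germ-free GeneChips stand apart from the others in ways that touch every comparison with them. The study's methods describe male mice. Xist, which is transcribed from the inactive X chromosome of female cells, had signals of 3752.9 to 11175.7 on the 6 GeneChips of colonized mice and of 17156.6 and 22761.6 on the 2 GF GeneChips. The Y-linked Eif2s3y had 3200.9 to 5656.8 on GeneChips of colonized mice and 71.3 and 614.4 in GF, so that the GF pool goes against the stated sex. On the GeneChips of colonized mice both transcripts were far above the GeneChip medians, so the stated sex is not plain for these pools either. Xist was higher in Bt/Bl, at 7541.1 and 11175.7, than in Bt and Bl, at 3752.9 to 5085.8. Fabp6, the bile acid binding protein of the ileum, lay between 1179.3 and 1798.3 in the colonized states and at 68028.8 and 95107.5 in GF. The ratio of 3′ to 5′ control probe sets of Gapdh, which grows as RNA or its amplification product shortens, was 8.93 to 17.6 on the GeneChips of colonized mice and 5.66 and 7.26 in GF. The same ratio for β-actin went the other way, with 21.4 to 36.3 in the colonized states and 36.9 and 38.8 in GF. The part of these differences in the results, against GF or between the colonized states, was not tested. GeneChip medians ranged from 474.9 to 759.

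**Figure D1:**
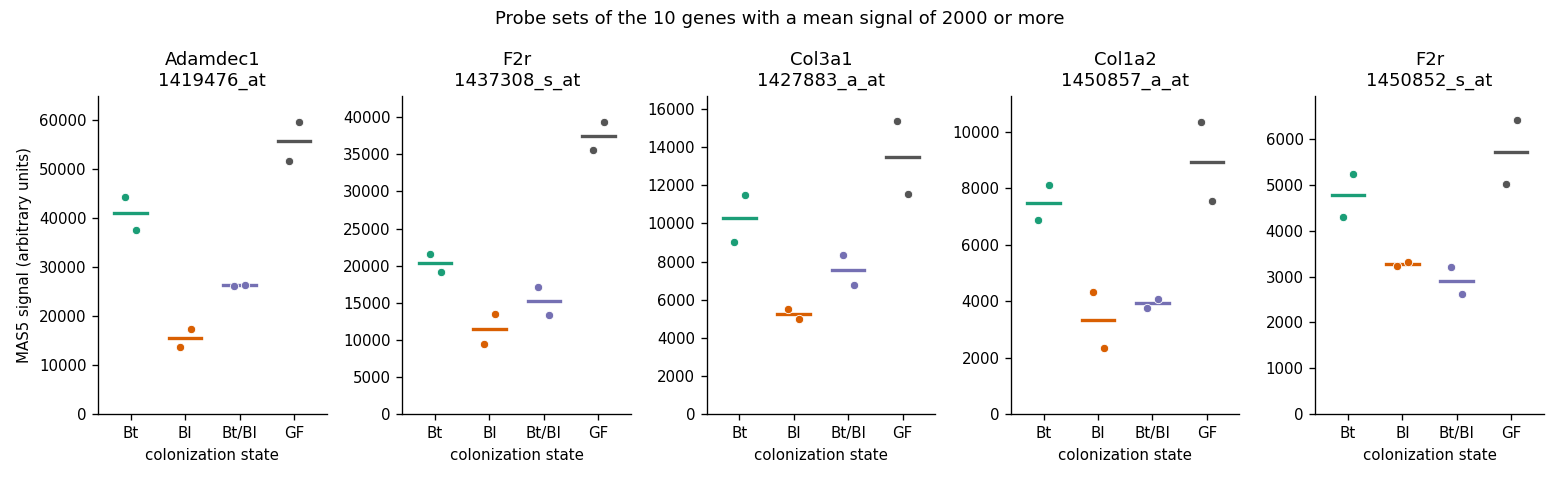
Signals of the 5 probe sets of the 10 genes with a mean of 2000 or more, in arbitrary MAS5 units on linear axes that start at 0. Points are single GeneChips and lines are means of the 2 GeneChips of a state. The probe sets of Adamdec1, Col3a1 and Col1a2 and the brighter one of F2r have their highest mean in GF and their lowest in Bl, while 1450852_s_at of F2r has its lowest in Bt/Bl.

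Adamdec1 has 1 probe set, 1419476_at. Its signals were 44297.2 and 37624.3 in Bt, 13749.1 and 17393.7 in Bl, 26266.5 and 26315.8 in Bt/Bl, and 51698.6 and 59602.5 in GF. The 4 states do not overlap, and in descending order they run GF, Bt, Bt/Bl, Bl. Duplicates differed by at most 1.27-fold, less than any 2 neighbouring state means. The mean signal was 3.59-fold lower in Bl than in GF on the log2 scale (difference -1.84, SE 0.22), 2.11-fold lower in Bt/Bl than in GF (-1.08) and 1.36-fold lower in Bt than in GF (-0.44).

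Bt/Bl lay between the mono-associations. Adamdec1 was 1.55-fold lower in Bt/Bl than in Bt (log2 difference -0.63, 95% confidence interval -1.09 to -0.18), and limma's adjusted p of 0.310 over the 24865 probe sets tested did not pass the threshold of 0.05. It was 1.70-fold higher in Bt/Bl than in Bl (0.77). With the GF GeneChips left out of the fit, the difference of Bt/Bl from Bt was again -0.63, with an adjusted p of 0.325.

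F2r encodes PAR1, the thrombin receptor of fibroblasts, platelets and endothelium, which is switched on when a protease cuts its extracellular end. Its 2 probe sets are of a kind whose probes can also match transcripts of other genes, so their signals may not be those of F2r alone. The brighter, 1437308_s_at, had signals of 21582.7 and 19143.0 in Bt, 9429.3 and 13497.6 in Bl, 17072.0 and 13432.4 in Bt/Bl, and 35581.5 and 39363.6 in GF. Both GF GeneChips were above the 6 others, whereas the Bl and Bt/Bl GeneChips overlapped. Against GF the log2 differences were -0.88 for Bt, -1.73 for Bl and -1.31 for Bt/Bl (SE 0.24), or 1.84-fold, 3.32-fold and 2.47-fold lower. Bt/Bl was 1.34-fold lower than Bt, a difference of -0.42 with an adjusted p of 0.576 (limma).

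The other F2r probe set, 1450852_s_at, gave 4301.0 and 5235.0 in Bt, 3227.0 and 3311.3 in Bl, 3211.7 and 2612.4 in Bt/Bl, and 5012.5 and 6419.0 in GF. Here the 2 GeneChips of Bt overlapped with those of GF, and those of Bl and Bt/Bl lay below all 4 of them. The log2 differences from GF were -0.26 for Bt, -0.80 for Bl and -0.97 for Bt/Bl (SE 0.33). Bt/Bl was lower than Bt by 0.71 on the log2 scale, with an interval of -1.41 to -0.02 and an adjusted p of 0.460 (limma). The 2 probe sets thus placed Bl and Bt/Bl in opposite order, and in neither was the difference between these states larger than 2 standard errors.

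Type I collagen, the main fibrillar collagen of connective tissue, is built of 2 chains from Col1a1 and 1 from Col1a2, and type III collagen is built of Col3a1. The brightest Col3a1 probe set, 1427883_a_at, had signals of 9046.1 and 11488.6 in Bt, 5491.9 and 5005.0 in Bl, 8338.9 and 6760.5 in Bt/Bl, and 15385.7 and 11559.7 in GF. Its state means followed the same order as Adamdec1, but the lower GF GeneChip was close to the higher Bt GeneChip. Col3a1 in Bl was 2.54-fold below GF, a log2 difference of -1.35 (SE 0.26), given as a description because Bl against GF is the contrast behind the choice of genes. Differences in the other comparisons were -0.39 between Bt and GF (adjusted p = 0.701, limma), -0.83 between Bt/Bl and GF (0.441), and -0.44 and 0.52 when Bt/Bl was set against Bt (0.606) and against Bl (0.464).

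The brightest Col1a2 probe set, 1450857_a_at, had signals of 6858.6 and 8115.5 in Bt, 4341.8 and 2334.8 in Bl, 3760.8 and 4091.2 in Bt/Bl, and 10335.4 and 7545.9 in GF. Bt overlapped with GF and Bl with Bt/Bl, and the 2 pairs lay apart. In Bl it was 2.77-fold below GF (-1.47, SE 0.33), also a description. In Bt/Bl it was 2.25-fold below GF (-1.17, 95% confidence interval -1.88 to -0.46, adjusted p = 0.356, limma) and 1.90-fold below Bt (-0.93, interval -1.64 to -0.22, adjusted p = 0.331). Without the GF GeneChips the adjusted p of Bt/Bl against Bt was 0.373. The difference of Bt/Bl from Bl was 0.30 with the interval -0.41 to 1.01, and it became -0.15 when Bl 9135 was left out.

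**Figure D2:**
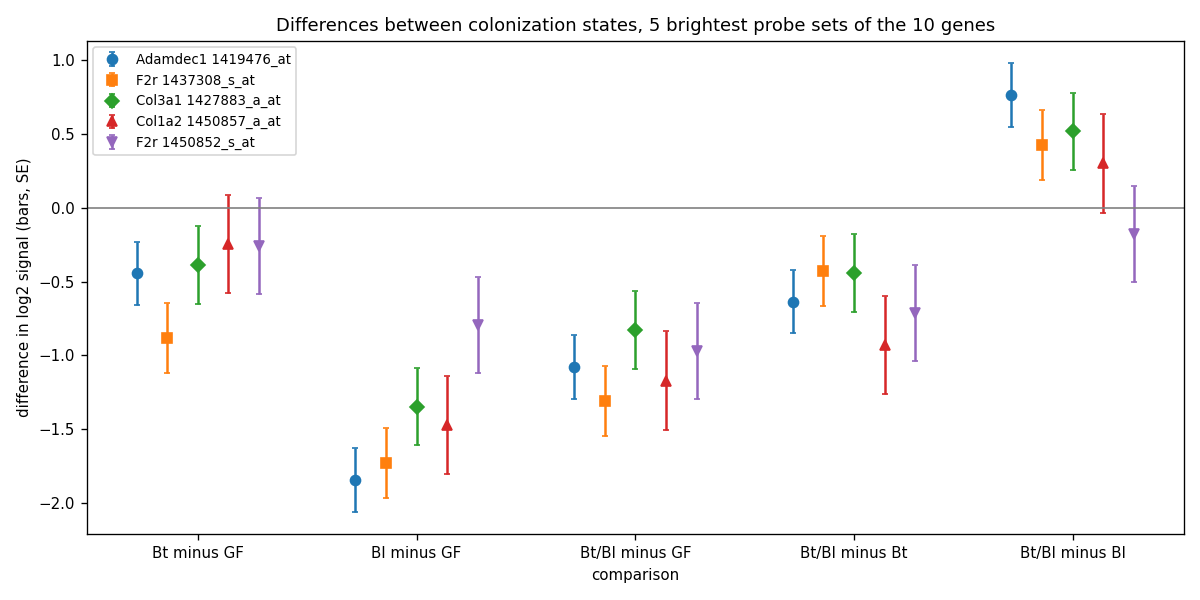
Differences in mean log2 signal between states for the same 5 probe sets, with the standard error of the limma fit as bars. All 5 are below 0 in the comparisons with GF and of Bt/Bl with Bt, and 4 of the 5 are above 0 between Bt/Bl and Bl.

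The second probe sets of these collagens did not share that order. Col1a2 1423110_at had 1659.4 and 1649.6 in Bt, 791.4 and 1670.6 in Bl, 1633.2 and 1278.3 in Bt/Bl, and 1134.6 and 1320.4 in GF, with all the other values inside the range of the Bl duplicates. Col3a1 1427884_at had 381.7 and 426.3 in Bt, 368.0 and 718.2 in Bl, 1134.2 and 1626.8 in Bt/Bl, and 1201.4 and 826.2 in GF, so that Bt/Bl was among the highest states here and between the mono-associations with 1427883_a_at. Col1a2 1446326_at was too dim to be tested, its duplicates differing by up to 19.6-fold.

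For Col1a1 neither probe set was bright. The better one, 1455494_at, had 609.9 and 976.5 in Bt, 278.2 and 1406.5 in Bl, 296.3 and 514.3 in Bt/Bl, and 1690.4 and 1090.4 in GF. The Bl duplicates, 5.06-fold apart, span the whole of Bt and Bt/Bl. Col1a1 1423669_at was under the floor on 5 of the 8 GeneChips and was not tested.

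**Figure D3:**
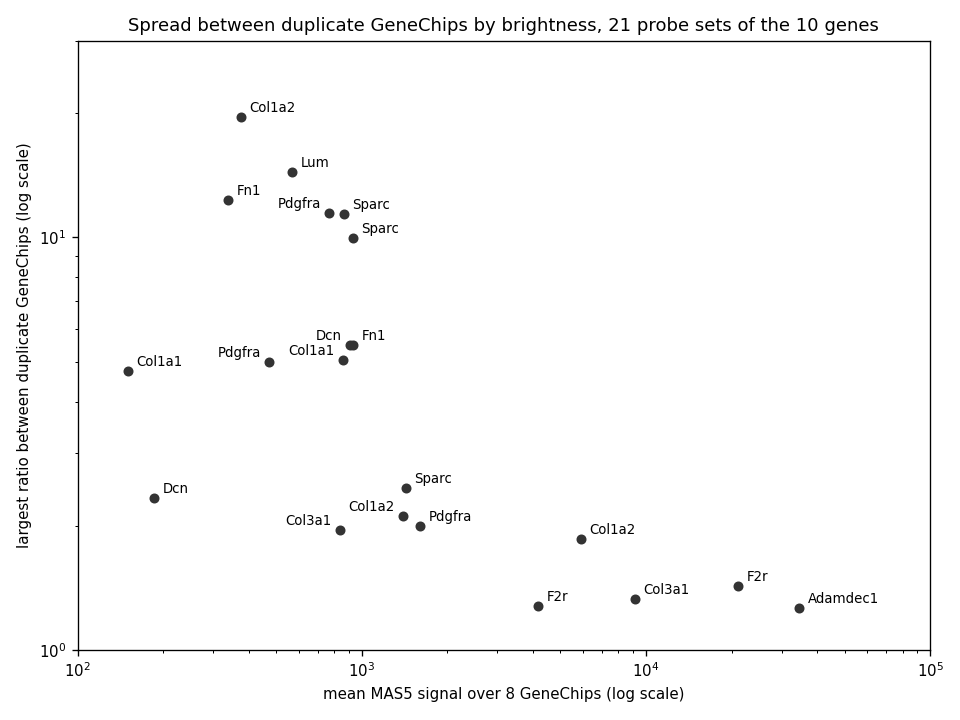
Largest ratio between the 2 GeneChips of a state against the mean signal, for the 21 probe sets of the 10 genes on log scales, each point labelled with its gene. The 5 probe sets above 2000 have ratios from 1.27 to 1.86, and those below reach 19.6.

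This dependence on brightness runs through the list. Of the 21 probe sets 16 had a mean signal under 2000, and 9 had at least 1 value under the floor, below which signals were not ranked. Only 17 passed the filter on low values (both GeneChips of a state above the median of 583.1). The filter was passed by all 10 genes with at least 1 probe set.

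The proteoglycans Dcn and Lum, whose genes are neighbours on their chromosome, both bind collagen fibrils. Dcn 1449368_at had 993.0 and 180.6 in Bt, 1320.5 and 938.2 in Bl, 626.3 and 763.7 in Bt/Bl, and 1089.0 and 1340.0 in GF. Lum 1423607_at had 159.2 and 1337.6 in Bt, 574.6 and 119.2 in Bl, 627.8 and 1067.4 in Bt/Bl, and 618.5 and 43.0 in GF. The Lum duplicates of GF differ by 14.4-fold, and no order of the states can be read from that gene. For Dcn 1449368_at the Bl and GF signals overlapped and were all above those of Bt/Bl. Its Bt duplicates differ by 5.50-fold, so Bt cannot be placed. A further Dcn probe set, 1441506_at, exceeded the floor on the Bt GeneChips only, at 333.1 and 662.2, and its other 6 values lay between 52.5 and 122.5.

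Sparc binds collagen and modulates how cells attach to matrix, and its 3 probe sets differed in how far the states lay apart. In all 3 the state means on the log2 scale ran Bl, GF, Bt, Bt/Bl in descending order, unlike those of Adamdec1. Signals of 1416589_at were 779.9 and 1929.3 in Bt, 2010.0 and 1390.8 in Bl, 1123.5 and 922.5 in Bt/Bl, and 1262.1 and 1990.8 in GF. With 1448392_at they were 811.7 and 84.2 in Bt, 2149.6 and 1738.2 in Bl, 36.7 and 365.7 in Bt/Bl, and 1450.8 and 787.1 in GF. With 1416589_at the 4 states overlapped apart from Bt/Bl, whose signals were below those of Bl and GF. With 1448392_at both Bl signals were above all the others, and 2 of the values were under the floor. Duplicates of the third, 1458204_at, differed by up to 11.4-fold.

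Fibronectin, the product of Fn1, links cells to collagen and is made by fibroblasts and by other cell types. Fn1 1426642_at had 1659.2 and 764.5 in Bt, 1490.6 and 272.3 in Bl, 637.0 and 502.1 in Bt/Bl, and 1027.2 and 1098.6 in GF. Both Bt/Bl GeneChips were below both Bt and both GF GeneChips, and the Bl pair enclosed all of these but 1 Bt value. The other Fn1 probe set was under the floor on 4 GeneChips.

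Pdgfra, the receptor, was the gene besides Adamdec1, F2r and Col3a1 with a probe set whose GF GeneChips were both above all 6 others. That probe set, 1421917_at, had 879.0 and 1212.6 in Bt, 1907.2 and 953.6 in Bl, 1407.7 and 1057.8 in Bt/Bl, and 2158.8 and 3235.7 in GF. Its 2 other probe sets did not share this: 1438946_at had 120.9 and 1382.4 in GF, and 1421916_at had its highest signals, 1138.4 and 769.1, in Bt/Bl and was under the floor on both Bl GeneChips.

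**Figure D4:**
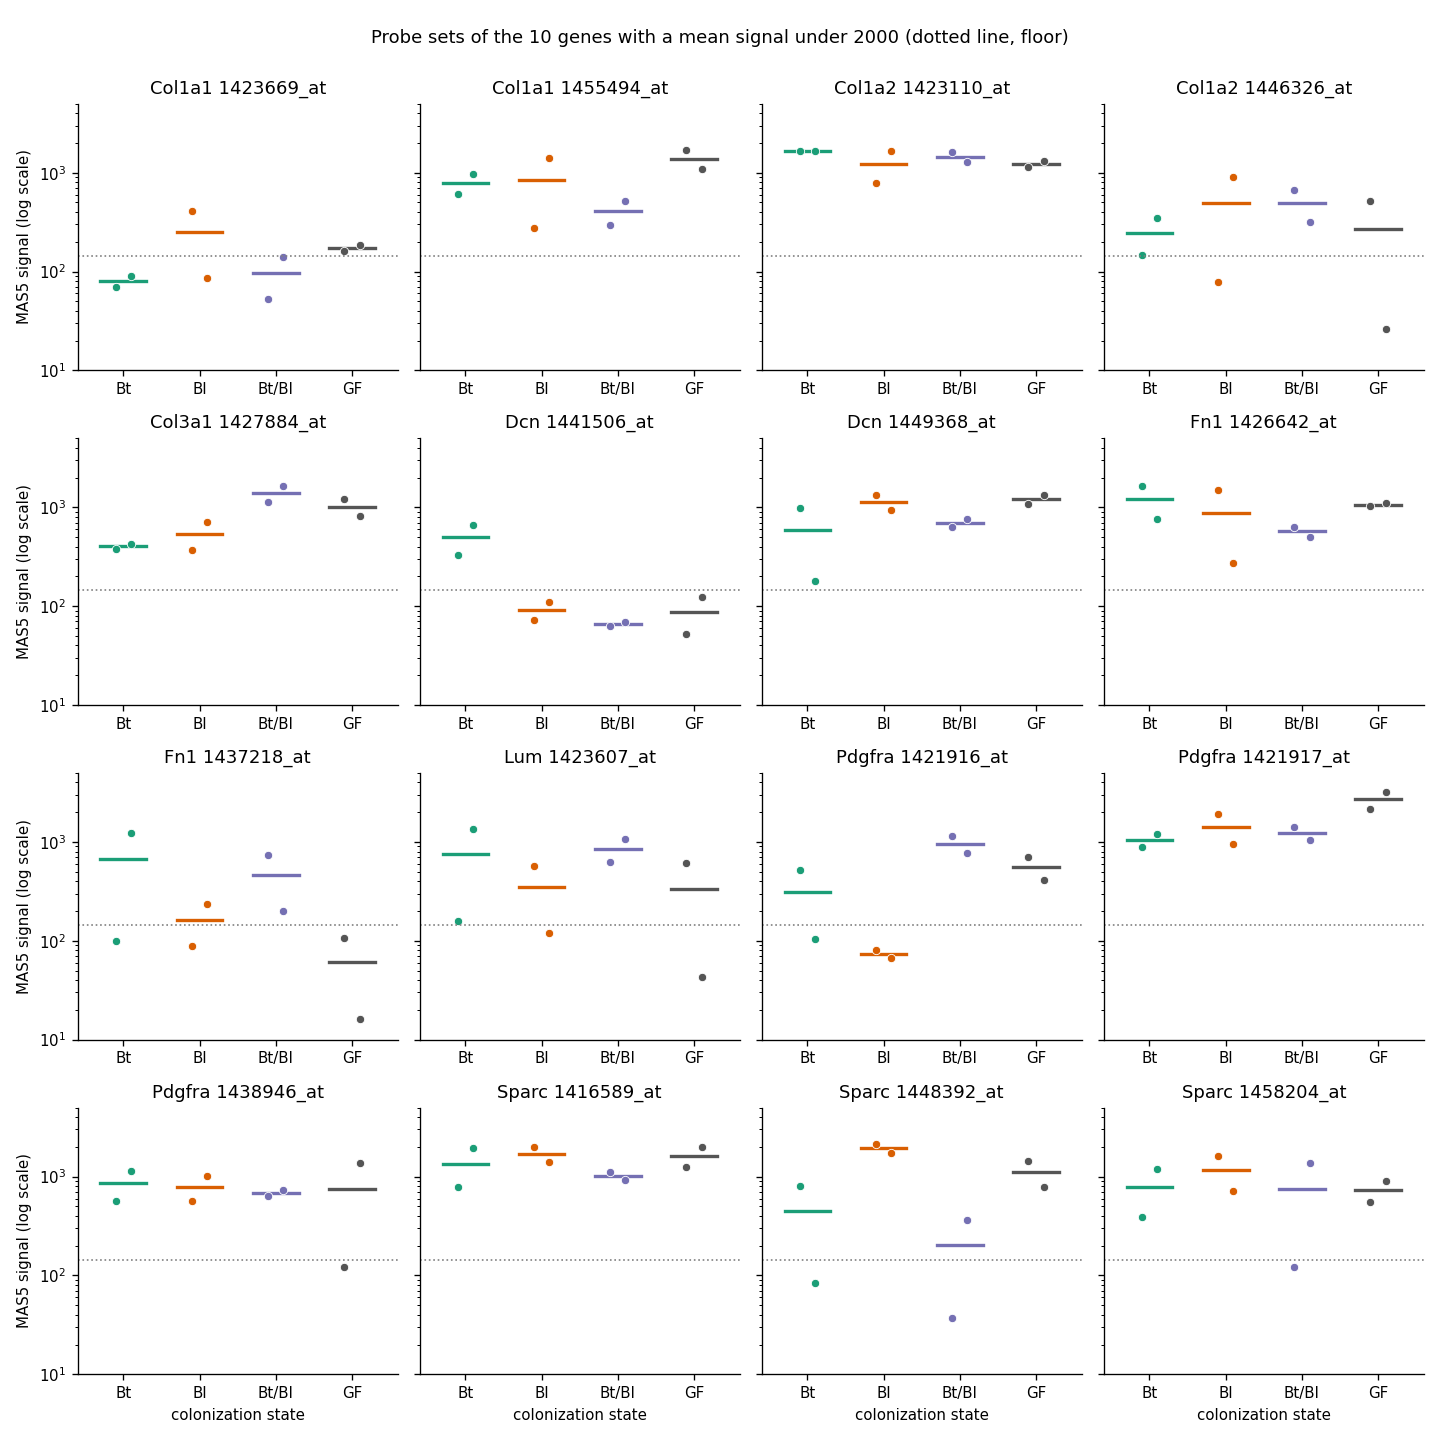
Signals of the 16 probe sets with a mean under 2000, on a log scale. Points are single GeneChips, lines are means of the 2 GeneChips of a state, and the dotted line is the floor of 144.7 to which lower signals were raised before the fit.

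Counted over the 17 probe sets tested, 0 were called by limma in Bt against GF, where 0.169% of all 24865 probe sets were called. In Bl against GF the 2 called were Adamdec1 and F2r 1437308_s_at, both lower, against a background of 0.137%. Nothing is read from that count, since this contrast chose both genes. In Bt/Bl against GF, with a background of 0.197%, the 1 called was F2r 1437308_s_at, again lower and again on the GF GeneChips that chose it, and the call was lost when any 1 of the 8 GeneChips was left out. With 1 left out its log2 difference stayed between -1.48 and -1.13, while the calls over the whole array fell to between 6 and 25, against 49 with all GeneChips. In Bt/Bl against Bt (background 0.0483%) and against Bl (0.0563%) 0 were called, and in the comparison with Bt 3 were below an unadjusted p of 0.05. Without Bt 9130 the Dcn probe set 1441506_at was called, higher in Bt in both comparisons (with GF and with Bt/Bl). With all 8 GeneChips it did not pass the filter. Bt was then a single GeneChip, assumed to vary like the other states, the 6 signals of those states with this probe set were all under the floor, and 1.25% and 1.17% of all probe sets were called in that setting. The 14 probe sets of the other 8 genes had 0 calls in all 5 comparisons, and 1, 3, 2, 1 and 2 with an unadjusted p under 0.05 in the order of the comparisons above. Shares of all probe sets at that unadjusted level were 9.49%, 11.7%, 7.39%, 10.5% and 11.8%.

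Over the 14 probe sets of the 8 genes other than Adamdec1 and F2r, the median log2 difference was -0.38 in Bt against GF, -0.43 in Bl and -0.73 in Bt/Bl, compared with 0.02, 0.05 and 0.01 for all probe sets tested. It was -0.25 in Bt/Bl against Bt and -0.15 in Bt/Bl against Bl, compared with -0.01 and -0.04. Differences below 0 were found for 10, 10 and 9 of the 14 against GF (48.7%, 47.5% and 49.4% of all probe sets), for 9 in Bt/Bl against Bt (50.5%) and for 8 in Bt/Bl against Bl (51.8%). The values cover only the probe sets that passed the filter, from a list drawn up with results of these data known, and are descriptions. As these comparisons share GeneChips, they are given side by side and not as repeats of each other.

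State means fell in the order GF, Bt, Bt/Bl, Bl in 4 of the 17 probe sets, those of Adamdec1, F2r 1437308_s_at, Col1a2 1450857_a_at and Col3a1 1427883_a_at, and in 3.89% of all probe sets. For Adamdec1 and F2r the ends of that order were fixed by how they were chosen. Both GF GeneChips exceeded the 6 others in 4 of 17 and in 4.04% of all, but 2 of these 4 are Adamdec1 and F2r 1437308_s_at, chosen by high signals in GF, and the other 2 are Col3a1 1427883_a_at and Pdgfra 1421917_at. Both Bt/Bl GeneChips were below both Bt GeneChips in 8 of 17, compared with 22.3% of all, and those 8 were Adamdec1, both of F2r, 2 of Col1a2, and 1 each of Col1a1, Col3a1 and Fn1.

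Promoter sequences show where the 3 other genes that shared the order of Adamdec1 differ before their start sites. RefSeq windows of 250 bases before to 50 bases after the start (mouse build GRCm38.p6) were matched for 5 of the 10 genes, Col1a2, Col3a1, F2r, Pdgfra and Sparc. Not matched were Adamdec1, Col1a1, Dcn, Lum and Fn1. Both strands were searched for 4 short motifs. TATAAA is the core of the TATA box, to which the basal transcription machinery binds. CCAAT is the box bound by NF-Y, a factor of many collagen promoters. GGGCGG is the GC box bound by Sp factors. TGANTCA, where N is any base, is the site of AP-1. Matches are in capitals, and a match on the other strand appears as its reverse complement. The windows are chr6:4505368-4505667 on the plus strand for Col1a2, chr1:45311288-45311587 on the plus strand for Col3a1 and chr13:95618417-95618716 on the minus strand for F2r.
Col1a2: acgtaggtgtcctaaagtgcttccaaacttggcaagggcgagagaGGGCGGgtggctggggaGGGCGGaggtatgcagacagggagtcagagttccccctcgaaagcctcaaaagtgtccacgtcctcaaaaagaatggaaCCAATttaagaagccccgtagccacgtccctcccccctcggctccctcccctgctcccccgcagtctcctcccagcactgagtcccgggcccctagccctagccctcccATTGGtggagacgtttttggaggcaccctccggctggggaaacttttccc
Col3a1: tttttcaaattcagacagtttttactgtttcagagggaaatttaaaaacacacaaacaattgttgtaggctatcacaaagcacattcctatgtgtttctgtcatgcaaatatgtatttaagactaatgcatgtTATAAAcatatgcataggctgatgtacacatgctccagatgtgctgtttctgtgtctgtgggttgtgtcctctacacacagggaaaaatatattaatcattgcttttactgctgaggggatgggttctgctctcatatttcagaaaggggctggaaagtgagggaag
F2r: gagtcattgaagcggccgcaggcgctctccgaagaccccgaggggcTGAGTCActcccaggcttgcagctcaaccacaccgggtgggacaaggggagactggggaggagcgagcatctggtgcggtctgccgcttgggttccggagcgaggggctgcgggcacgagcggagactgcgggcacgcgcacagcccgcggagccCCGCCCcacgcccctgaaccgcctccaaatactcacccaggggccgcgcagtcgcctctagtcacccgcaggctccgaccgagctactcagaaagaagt
Col1a2 holds 2 GC boxes and 2 CCAAT matches, 1 of them on the other strand at the start site. Col3a1, with 37.7% G and C, holds a TATAAA match at position -117 relative to its start site and none of the other motifs, and F2r, with 68.7% G and C, holds 1 GC box on the other strand and 1 AP-1 match. No motif was found in all 3 windows, and 0 were found in those of Pdgfra and Sparc. Of 32851 promoter windows of this length, 13.6% hold the TATA motif, 37.4% the CCAAT box, 35.7% the GC box and 7.81% the AP-1 motif, so the matches are a description of these letters only.

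Over the 8 GeneChips the gene most like Adamdec1 was Postn, which encodes periostin, a matrix protein of the fibroblasts around the crypts. Likeness was Pearson's r of log2 signals with 1419476_at among 10418 genes with a range of at least 1 on the log2 scale, and since the points are 8 GeneChips of 4 pools it is a description. Postn (r = 0.971) had signals of 4599.3 and 4867.5 in Bt, 2104.1 and 2262.4 in Bl, 3956.9 and 3730.7 in Bt/Bl, and 5642.2 and 7798.4 in GF. The 4 states of Postn did not overlap either. Next came Tecr (0.954), an enzyme of very-long-chain fatty acid synthesis, Aldh9a1 (0.953), an aldehyde dehydrogenase, Alkbh7 (0.943), a mitochondrial protein, and F2r (0.943). Cald1 (0.938), the actin-binding protein caldesmon of smooth muscle and fibroblasts, Eid1 (0.936) and the ion channel Trpm7 (0.934) followed. F2r was chosen by the same contrast as Adamdec1, Bl against GF, so its place among these genes follows in part from that choice.

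Cald1 had signals of 5425.1 and 5895.4 in Bt, 2556.7 and 2610.4 in Bl, 3987.3 and 2701.7 in Bt/Bl, and 6323.6 and 7866.3 in GF, the same order of states as Adamdec1. The other listed genes spread widely on this measure, each by its brightest probe set. Col3a1 ranked 20 (r = 0.904) and Col1a2 ranked 121 (0.821), whereas Col1a1 (0.519), Fn1 (0.374) and Pdgfra (0.357) were far down the order. Dcn (-0.07), Sparc (-0.12) and Lum (-0.14) were slightly below 0.

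Genes of related function were taken from lists chosen with earlier results known. Of 18 other collagens and matrix genes of fibroblasts, 17 were on the array and 14 tested, and 0 of 14 were called in each of the 5 comparisons. Their median log2 difference was 0.10 for Bt, -0.52 for Bl and -0.67 for Bt/Bl against GF, and their summed signals were 40539.3 and 40423 in Bt, 32050.8 and 25644.5 in Bl, 28970.2 and 28704.5 in Bt/Bl, and 46953.8 and 45073.6 in GF. Bl and Bt/Bl were low and Bt was nearer to GF in this sum. Col6a2, a chain of the filament-forming type VI collagen, had 8252.9 and 7206.7 in Bt, 5121.0 and 5422.1 in Bl, 5236.0 and 4201.5 in Bt/Bl, and 12627.9 and 8083.4 in GF. Mmp2, a gelatinase that digests collagen, and Col6a1 were not called in any comparison either.

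The basement membrane, on which the epithelium rests, had 0 of 9 tested genes called in each comparison. Lamb1, a laminin chain, had signals of 5820.8 and 5050.4 in Bt, 4291.9 and 3227.0 in Bl, 3803.0 and 4178.0 in Bt/Bl, and 9253.6 and 14308.6 in GF. Hspg2, the core protein of perlecan, went another way, with 3567.7 and 2865.3 in Bt, 7977.7 and 6759.9 in Bl, 6062.5 and 4530.9 in Bt/Bl, and 5906.7 and 4272.4 in GF. Bl thus had the highest mean for Hspg2 and the lowest for Lamb1, where its 2 signals enclosed those of Bt/Bl.

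Partners of the receptors on the list showed 0 calls in all 5 comparisons as well. All 4 PDGF ligands were tested, and Pdgfa, the ligand made by epithelium for Pdgfra, had 4597.8 and 5747.3 in Bt, 5236.2 and 8297.2 in Bl, 7184.5 and 6278.1 in Bt/Bl, and 8236.2 and 4148.8 in GF. The GF duplicates of Pdgfa enclose every value but 1. Of the coagulation partners of F2r, thrombin's gene F2 and the receptor F2rl2 were tested and both had duplicates far apart. Of 8 ADAM proteases, relatives of Adamdec1 that are anchored in the membrane, 5 were tested, with Adam10 at 5045.0 and 5499.3 in Bt, 3718.9 and 8572.3 in Bl, 10198.0 and 7171.3 in Bt/Bl, and 5133.6 and 9778.2 in GF. Among 13 signalling genes of the mesenchyme around the crypts, such as Bmp5, Foxf1 and Gli1, 7 were tested. Over these 7 the median log2 difference from GF was 0.78 for Bt, 0.84 for Bl and 0.00 for Bt/Bl. Summed signals of the 13 were 8042 and 9189.9 in Bt, 11867.5 and 4588.4 in Bl, 6429.2 and 5962.4 in Bt/Bl, and 5636.7 and 6112.4 in GF. Both Bt sums were above both GF sums, and the Bl pair enclosed all the others.

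**Figure D5:**
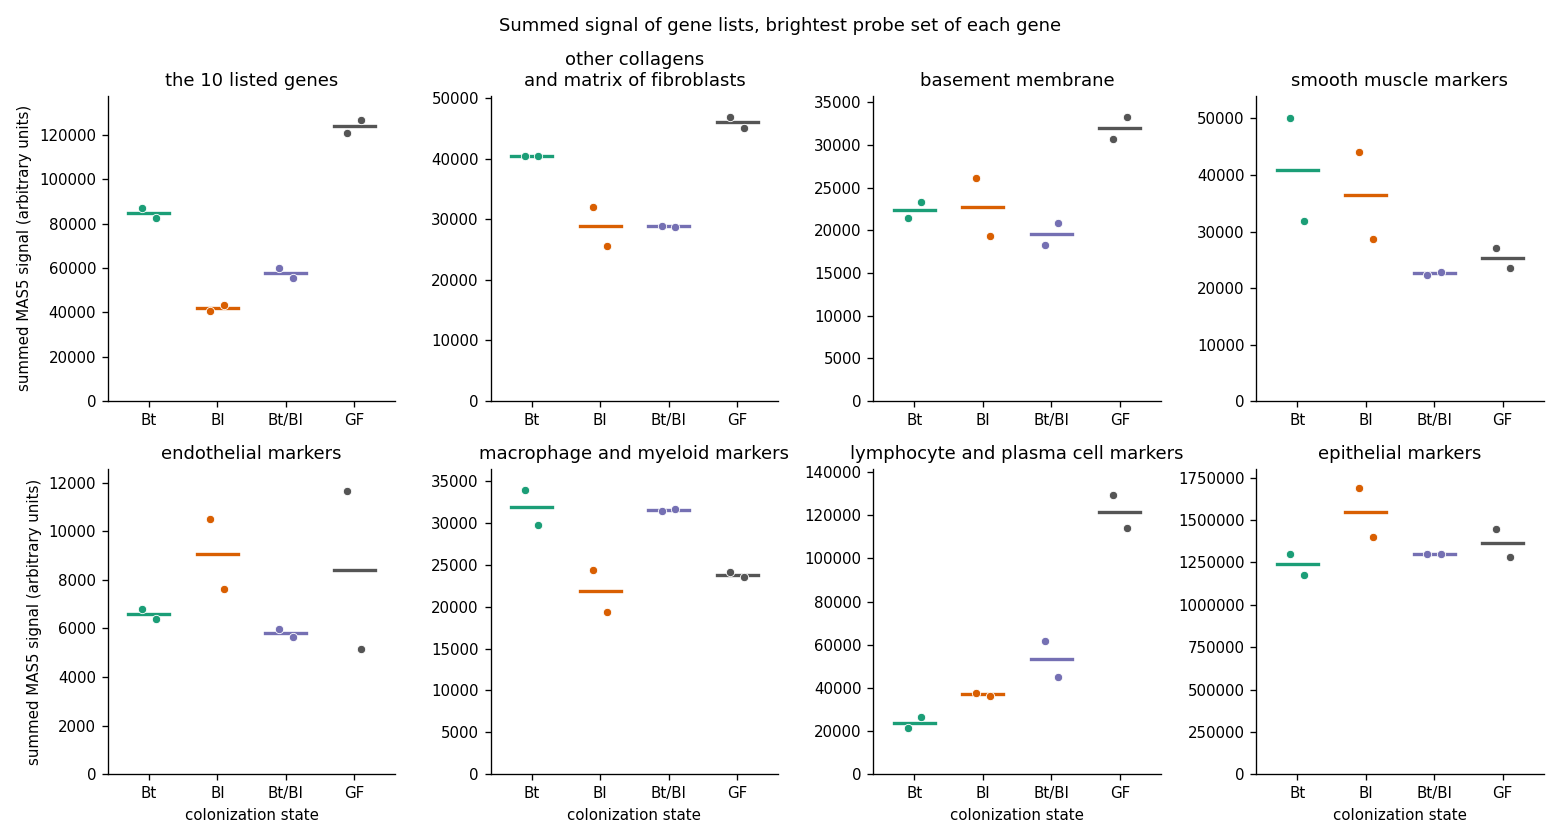
Summed MAS5 signal, in arbitrary units, of the brightest probe set of each gene in 8 lists, on linear axes that start at 0. Points are single GeneChips and lines are means of the 2 GeneChips of a state. The sum over the 10 genes is highest in GF and lowest in Bl, but most of it is Adamdec1 and F2r, which were chosen by Bl below GF. That of lymphocyte and plasma cell markers, in GF mostly Igha, is highest in GF and lowest in Bt. That of smooth muscle markers, mostly Tpm2, is highest in Bt.

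Markers of other cells that a capture of epithelium could take along are given as sums per GeneChip. The summed signal of the 10 genes was 86864.8 and 82772.5 in Bt, 40593.2 and 43311.7 in Bl, 60156.8 and 55427.7 in Bt/Bl, and 120847 and 126870 in GF, of which Adamdec1 and F2r form the larger part. Both genes were chosen by Bl below GF, so the ends of this order were largely set by that choice. Smooth muscle markers (5 of 10 tested) summed to 50071.7 and 31838.2 in Bt, 44076 and 28676.1 in Bl, 22276.5 and 22913 in Bt/Bl, and 27032.8 and 23574.6 in GF. Most of these sums came from Tpm2, a tropomyosin, and without it they were 15846.7 and 11171 in Bt, 7038.7 and 7497 in Bl, 5887.1 and 7062.7 in Bt/Bl, and 6802.3 and 6628.8 in GF. Bt then stood above the other states, which lay close together, and 0 of the 5 tested genes were called in any comparison. Acta2, the actin of smooth muscle and myofibroblasts, had 11183.4 and 5991.6 in Bt, 5323.7 and 2878.8 in Bl, 4124.6 and 3036.1 in Bt/Bl, and 3910.3 and 4499.2 in GF.

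Macrophage and myeloid markers, which bear on Adamdec1 because of its description in macrophages, summed to 33969.9 and 29721.1 in Bt, 24337.3 and 19366.4 in Bl, 31379.6 and 31685.8 in Bt/Bl, and 24127 and 23486.1 in GF. Cd14, a receptor for bacterial lipopolysaccharide, had the highest mean of the list over all GeneChips, though not in Bt. Without it the sums were 22772.2 and 20004.9 in Bt, 18084.1 and 10269.9 in Bl, 13677 and 15019.8 in Bt/Bl, and 17820.4 and 14530.7 in GF. The mean of Bt/Bl was thus above that of GF with Cd14 and below it without. Of 12 genes 10 were tested and 0 were called. Csf1r, the receptor that sustains macrophages, had 12781.4 and 10267.1 in Bt, 9192.2 and 4015.2 in Bl, 8081.4 and 6966.5 in Bt/Bl, and 7189.8 and 7364.9 in GF. Adgre1, a surface protein of mouse macrophages, had 2212.8 and 1419.1 in Bt, 1586.8 and 1919.0 in Bl, 1332.7 and 1547.5 in Bt/Bl, and 2892.4 and 1658.0 in GF, with Bt and Bl overlapping GF and Bt/Bl below it, though 0 comparisons passed. Endothelial markers (5 of 10 tested, 0 called) summed to between 5176.2 and 11646.3, both ends of the range being GF GeneChips.

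Besides the 10 genes, lymphocyte and plasma cell markers (7 of 12 tested) were the only one of the 11 lists with calls. Their sum was 21358.7 and 26485.6 in Bt, 37612.4 and 36426.2 in Bl, 61717.5 and 45267.7 in Bt/Bl, and 129345 and 114045 in GF, and in GF most of it came from Igha, the heavy chain of the antibody that plasma cells of the lamina propria secrete. Igha had 12170.7 and 13109.6 in Bt, 25565.0 and 27712.4 in Bl, 49896.2 and 34067.1 in Bt/Bl, and 113964 and 95693.6 in GF. Sums without Igha were 9188 and 13376 in Bt, 12047.4 and 8713.8 in Bl, 11821.3 and 11200.6 in Bt/Bl, and 15381.7 and 18351.3 in GF. The colonized states then overlapped, and GF was still highest. As the list was chosen with earlier results of these data known, the p-values that follow are descriptions and not independent tests. Igha was lower than in GF in all of the colonized states, with adjusted p-values from limma of 7.73e-06 for Bt, 0.000720 for Bl and 0.0202 for Bt/Bl, and it was 3.26-fold higher in Bt/Bl than in Bt (0.00834). Jchain, which joins antibody units, was lower in Bt than in GF (0.00345). Of the 7 genes 5 were not called in that comparison, and the median log2 difference over the 7 was 0.54, with 3 below 0. Ighm and Cd8a had higher mean signals in Bt than in GF, 2825.3 against 1680.3 and 2061.25 against 908.95. Bt was lowest for Igha and Bl was lowest for Adamdec1, while GF was highest for both. The part of these other cells in the values of the 10 genes was not tested.

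A second array, the GlycoGeneChip of genes for carbohydrate metabolism, held 5 probe sets of 3 of the genes, and its values were not combined with the others. Dcn X53929_at had 2994.6 and 2570.2 in Bt, 134.5 and 136.4 in Bl, 359.1 and 149.3 in Bt/Bl, and 1271.9 and 161.4 in GF, of which 4 values are under that array's floor of 268.1. Both Bt GeneChips were above the 6 others, as with Dcn 1441506_at above. The sister probe set X53929_s_at did not show this, with 2700.4 and 2265.0 in Bt, 156.5 and 2535.7 in Bl, 2104.2 and 1568.8 in Bt/Bl, and 2905.1 and 1461.2 in GF. Nor did the brighter Dcn probe set of the whole-genome GeneChip, 1449368_at, whose lowest state mean was that of Bt, at 586.8. Lum BC005550_at had 2561.2 and 4013.4 in Bt, 1111.2 and 1842.0 in Bl, 2227.4 and 1725.2 in Bt/Bl, and 807.1 and 2498.9 in GF, while the Lum BC005550_s_at duplicates of GF, 83.0 and 1814.0, were 21.9-fold apart. The Pdgfra probe set was under the floor on 7 of 8 GeneChips.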

How the data were processed

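Cecal epithelium of 4 states was measured on 2 GeneChip types, 2 GeneChips per state and type. The authors deposited linear MAS5 signal intensities per probe set, scaled on each GeneChip. Depth does not apply, and the number of GeneChips limits precision. The MAS5 version is not given in the sources used here. The members and lists were chosen with earlier results of these data known.

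Intensities of the whole-genome table were raised to the 25th percentile of all values (144.7), put on the log2 scale and kept where both GeneChips of a state exceeded the median (583.1). The 64 control probe sets were left out, and 24865 of 45101 remained. The fit used limma 3.58.1 (lmFit, and eBayes with an intensity trend) under R 4.3.3 and had 4 residual degrees of freedom, with Benjamini-Hochberg adjustment over all of them and a threshold of 0.05. The code was tested on simulated data. Fold changes are on the floored log2 scale. Of all probe sets, 34958 have 1 gene symbol, 932 several and 9211 none, and only the first were named. Gene lists used the brightest probe set of each gene, and Fbn1 and F2rl1 had none.

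Named are all 10 genes, up to 4 genes of a list (called ones first, otherwise the brightest), the 8 genes most correlated with Adamdec1, and Xist, Eif2s3y and Fabp6. Alternatives varied scaling, floor, filter, variance trend and GeneChips. On the GlycoGeneChip 5 probe sets were described without a test.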

Additional observations from a re-analysis of the deposited data

Results flagged for a closer look

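For the probe sets below, the GeneChips of 2 states lay apart in one direction when a species was added to GF and in the other direction when it was added to the other species. In none of them was the difference between the 2 effects tested. For Adamdec1 1419476_at the log2 difference was -0.44 for Bt minus GF and 0.77 for Bt/Bl minus Bl. This gene was chosen by its high signals in GF and low signals in Bl, which by itself pushes these 2 differences apart. For Col3a1 1427883_a_at they were -0.39 and 0.52 (SE 0.26), neither past limma's threshold (adjusted p = 0.701 and 0.464).

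Of the dim probe sets, Col3a1 1427884_at had -1.30 for Bt minus GF and 1.40 for Bt/Bl minus Bl, and -0.95 for Bl minus GF and 1.75 for Bt/Bl minus Bt. Each of these has an SE of 0.90, and those that were tested did not pass (adjusted p = 0.707, 0.567 and 0.527, limma). Pdgfra 1421916_at had -1.89 for Bl minus GF and 1.78 for Bt/Bl minus Bt (SE 0.86). Both Bl signals and 1 Bt signal of this probe set were raised to the floor, so that the differences depend on it, and the probe set passed the filter only through Bt/Bl.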

How the results depend on the processing

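The 1 call of Bt/Bl against GF, F2r 1437308_s_at, became 0 calls with median scaling, with the floor at the median, with no filter, with a filter at the 75th percentile, without the intensity trend, with only the GeneChips compared, and with any 1 of the 8 GeneChips left out (range 0 to 0). With quantile normalization it became 2, Adamdec1 and F2r, and without a floor it stayed at 1. Both genes were chosen with these GF GeneChips, so nothing is read from these calls. The log2 difference of F2r 1437308_s_at itself stayed between -1.35 and -1.30 under these settings and between -1.48 and -1.13 with a GeneChip left out. Calls over all probe sets, 49 as reported, were 12 with median scaling, 28 with the floor at the median, 8 with no filter, 41 with the stricter filter, 0 without the trend, 5 with only the GeneChips compared, 56 with quantile normalization and 6 to 25 with a GeneChip left out. The 0 calls of Bt against GF and of Bt/Bl against Bt became 1, Dcn 1441506_at, without Bt 9130 and were 0 otherwise (range 0 to 1), and in that setting, with 1 Bt GeneChip, calls over all probe sets were 373 and 348, against 42 and 12 as reported. Those of Bt/Bl against Bl were 0 throughout. The cause was not tested. Col1a2 1450857_a_at between Bt/Bl and Bl was -0.15 without Bl 9135 and ranged up to 0.75 with other GeneChips left out. Median scaling moved the median of all probe sets by -0.37 in Bl against GF and by 0.31 in Bt/Bl against Bl, turned F2r 1450852_s_at between Bt/Bl and Bl to 0.12, and left Adamdec1 at -1.87 relative to that median in Bl against GF, close to -1.89 as reported. No paired analysis was possible because the GeneChip numbers are not shared between states. Signals under the floor carry no order, which touches 9 of the 21 probe sets, and no spread between mice was measured.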
